A study of Mus musculus with 2 samples.

Results

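The glutathione, aldehyde and antioxidant enzymes were examined in cultured mouse tracheal epithelial cells, 1 sample from Gprc5a knockout mice and 1 sample from wild-type mice. Members were taken by gene symbol alone: the glutathione transferases (Gst and Mgst), glutathione peroxidases (Gpx), peroxiredoxins (Prdx), thioredoxin reductases (Txnrd), epoxide hydrolases (Ephx), aldo-keto reductases (Akr) and aldehyde dehydrogenases (Aldh, without the retinaldehyde dehydrogenases Aldh1a1 to Aldh1a3), with Gclc, Gclm, Gsr, Hmox1, Nqo1, Srxn1, Nfe2l2 and Keap1. Of the 14860 genes with a probe set of their own on the Affymetrix array, 71 were members. In RefSeq's table of GRCm38.p6, 89 symbols match those names. Of the 18 others, 9, among them Gstp1, Gclm and Txnrd1, share their probe sets with a second gene, and 9, among them Prdx6, Gsta1 and Gsta2, have no entry in the platform table used. These 18 were not analysed here.

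The knockout group is Gprc5a−/− and the wild-type control group is Gprc5a+/+. Gprc5a encodes an orphan G protein-coupled receptor that retinoic acid induces. Both groups have a mixed C57 BL/6 × 129sv strain background and come from mice aged 3 weeks, and neither was treated. Their cells were collected in exponential growth, in K-SFM, a keratinocyte serum-free medium, to which bovine pituitary extract (50 µg/ml) and epidermal growth factor (5 ng/ml) were added. The sources used here do not say how many mice each sample came from, whether they were littermates or how often the cells were passaged. Each genotype is 1 array, so every value is a single measurement without an error or a test, and a difference describes these 2 samples only. In bulk RNA, fewer cells of a type and less RNA per cell cannot be told apart.

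Glutathione is a tripeptide thiol that detoxifies electrophiles and peroxides. The transferases join it to reactive molecules, the peroxidases use it to reduce peroxides, and glutathione reductase restores it with NADPH. Epoxide hydrolases, aldo-keto reductases and aldehyde dehydrogenases remove epoxides and reactive carbonyls, which reach the airway lining in smoke and other inhaled material or form from oxidised lipids. Many of these genes are targets of the transcription factor NRF2, which the adaptor KEAP1 marks for degradation until oxidants or electrophiles modify KEAP1. NRF2 binds the antioxidant response element. In the airway, club cells are known for high levels of several of these enzymes.

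Values are log2 RMA values, and differences are given on that scale as knockout minus wild type. The level limit was 6.90, the median value of the single-symbol probe sets with both samples pooled, and a gene was above it when its higher value exceeded it. Background was set at 5.05, the 95th percentile of 799 olfactory and vomeronasal receptor genes. The median difference over all genes was -0.03, and 95% of genes lay between -0.93 and 1.18. Gprc5a itself was at 4.05 in the knockout sample, against 9.49 in the wild-type sample, a difference of -5.44. Several airway basal cell markers were high in both samples. Krt5, a basal keratin, was at 12.62 in the knockout and 12.71 in the wild type, and Trp63, the basal cell transcription factor p63, at 10.76 in the knockout and 10.95 in the wild type. The 7 basal markers summed to 14649 on the linear scale in the knockout and 16286 in the wild type, and among them Pdpn was the gene past 2-fold, 29.5-fold lower in the knockout at 5.73, against 10.62 in the wild type. Ngfr, the nerve growth factor receptor of basal cells, was under the level limit in both samples, at 5.66 in the knockout and 5.98 in the wild type, and the wild-type values of Krt15 (6.91) and Dlk2 (6.93) barely passed it.

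Among the members, a small number of detoxifying enzymes were much higher in the knockout sample while most of the family differed little. Mgst1, Aldh2, Gstm4, Gstt3, Gsta3, Akr1b8, Ephx1 and Aldh3b1 were at least 2-fold higher above the level limit, and Akr1e1 was at least 2-fold lower. Among all genes above the limit, 4.56% were at least 2-fold higher and 2.85% at least 2-fold lower. The limit was passed by 40 members, 6 of them by the knockout value only and none by the wild-type value only. Of the 7783 genes above the limit, 401 passed by the knockout value only and 264 by the wild-type value only. A member that passed by its knockout value only had to be higher there, which was so for 5 of the 8 (Mgst1, Aldh2, Gstm4, Gstt3 and Aldh3b1). The same was so for 203 of the 355 genes on the array that were at least 2-fold higher above the limit. With both values above the limit there were 34 members, of which 3 were at least 2-fold higher and 1 at least 2-fold lower, and among all such genes the shares were 2.14% and 1.43%.

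Counted without a limit, 10 of the 71 members (14.1%) were at least 2-fold higher and 2 (2.82%) at least 2-fold lower, against 3.34% and 2.11% of all genes. The 59 other members lay within 2-fold, and 52 of the 71 lay within 1.5-fold. Of all 14860 genes, 14050 lay within 2-fold and 12747 within 1.5-fold, which are larger shares than among the members. The members' median difference was 0.03, beside -0.03 over all genes, and their mean was 0.30, beside 0.01 over all genes. Centring each sample on its median, which shifts all differences down by 0.12, turned the members' median to -0.09. The members therefore divided into a few enzymes with large positive differences and a majority near 0, with 38 higher and 33 lower values in the knockout. Among all genes, 6835 were higher and 8023 lower. Both values were below background for 22 of the 71 members, a share close to that of all genes (4532 of 14860).

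**Figure D1:**
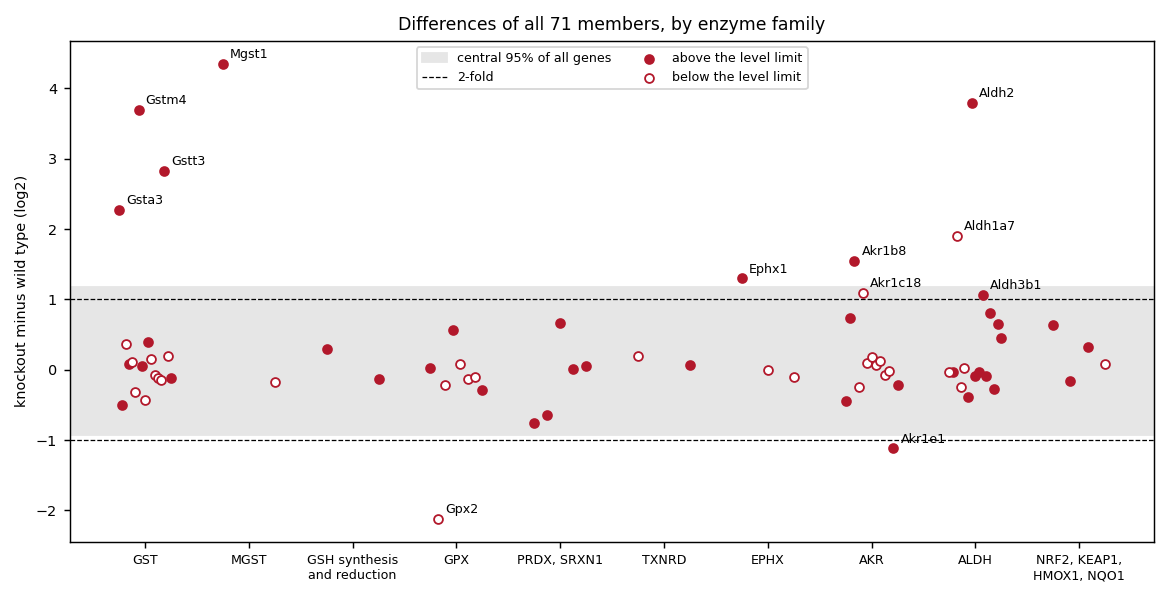
Difference of each of the 71 members (knockout minus wild type, log2) by enzyme family, with filled points above the level limit and open points below it. The grey band is the central 95% of all genes (-0.93 to 1.18), the dashed lines mark 2-fold, and every member at 2-fold or more is named.

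The microsomal transferase Mgst1, a membrane enzyme of the endoplasmic reticulum and mitochondria that conjugates glutathione and reduces lipid peroxides, had the highest difference of all members. It was at 10.02 in the knockout sample and 5.66 in the wild-type sample, a 20.4-fold difference, and ranked 13 among the genes above the level limit, counted from the highest difference. The wild-type value lay near background and the knockout value far above it. Mgst1 lies on chromosome 6, as does the targeted gene Gprc5a. Which strain the region around Gprc5a came from in each sample was not tested. Mgst3, a related membrane enzyme, was below the level limit in both samples, at 6.51 in the knockout and 6.69 in the wild type.

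The cytosolic glutathione transferases had 17 members, of which 8 were above the level limit and 7 had both values below background. Gstm4, a mu class enzyme, was at 8.31 in the knockout and 4.61 in the wild type, a 13.0-fold difference. Its wild-type value was below background, and raised to the background level it gave 9.53-fold. Gstt3, a theta class enzyme, was at 8.30 in the knockout and 5.48 in the wild type, 7.10-fold higher. Both genes were thus above the limit in the knockout sample and near or below background in the wild type. Gsta3, an alpha class enzyme that in mice conjugates the epoxide of aflatoxin B1, was measured well above the limit in both samples, at 10.50 in the knockout and 8.22 in the wild type, 4.84-fold higher.

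The remaining 14 transferases lay between -0.50 and 0.39. At the lower end was Gsta4, which conjugates the lipid aldehyde 4-hydroxynonenal, with 11.46 in the knockout and 11.95 in the wild type. The upper end was Gsto1, an omega class enzyme that reduces mixed disulfides, with 12.16 in the knockout and 11.77 in the wild type. Gsta4 and Gsto1, both far above the limit in each sample, thus had differences much smaller than those of Gstm4 and Gstt3. The family holds close paralogs, and probes may not tell all of them apart.

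Gstm and Gstt genes lie in clusters, and in each cluster 1 member was at 2-fold or more. In chromosome order the 6 mu class members were Gstm5, Gstm7, Gstm3, Gstm2, Gstm1 and Gstm4, on chromosome 3. Gstm5 was at 8.68 in the knockout and 8.63 in the wild type, and Gstm1 at 7.37 in the knockout and 7.28 in the wild type. Both were above the level limit and differed by less than 0.1, next to the difference of 3.70 for Gstm4. Gstm2, Gstm3 and Gstm7 were below background in both samples. Ampd2, the gene after Gstm4, was at 8.64 in the knockout and 8.63 in the wild type.

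The theta class members Gstt3, Gstt1, Gstt4 and Gstt2 follow each other on chromosome 10. Gstt1, the nearest, was near background at 5.13 in the knockout and 5.25 in the wild type, and Gstt4 and Gstt2 were below background in both samples. The theta cluster therefore held no other member above the limit to compare with Gstt3. Ddt, the gene on the other side of Gstt3, was at 7.55 in the knockout and 6.66 in the wild type. The 40 nearest genes above the limit had a median difference of 0.40, with 32 higher and 8 lower, and relative to them Gstt3 was 5.39-fold higher.

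**Figure D2:**
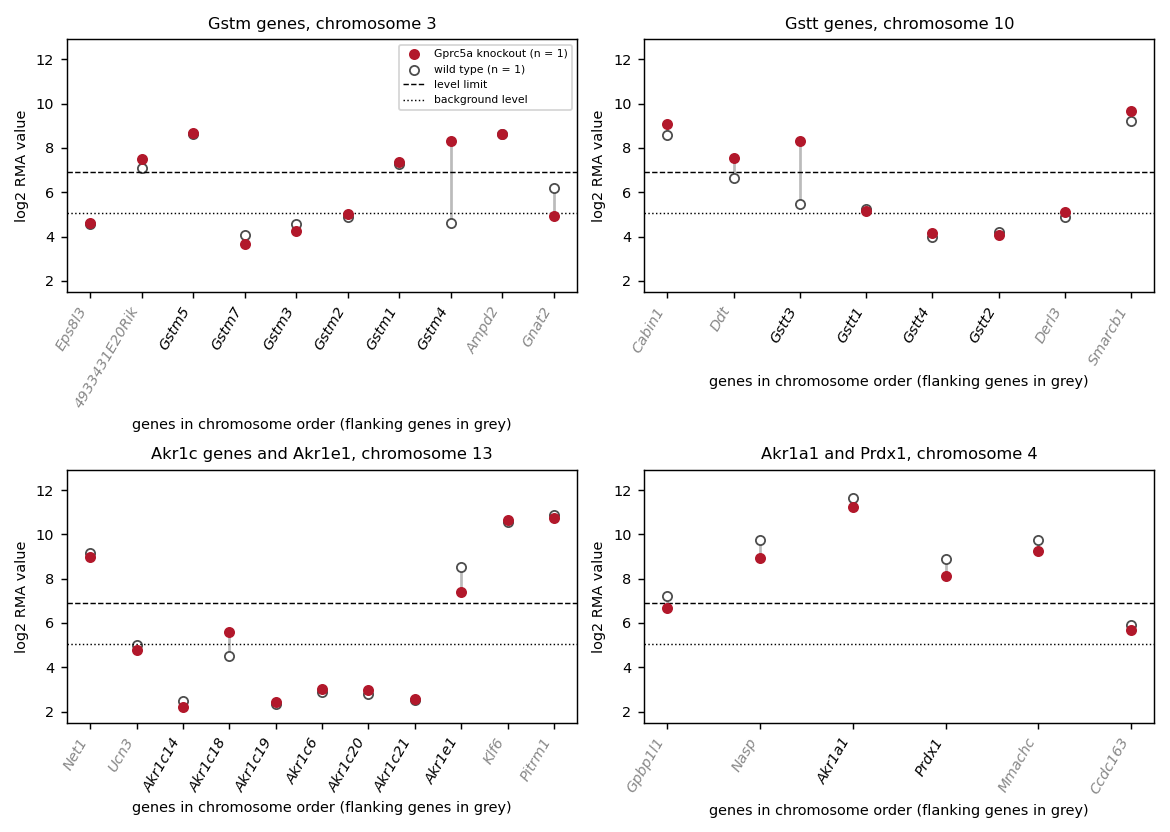
log2 RMA values of neighbouring members and their flanking genes in chromosome order (order only, not to scale of distance), knockout filled and wild type open, 1 sample each. Gstm4 at 8.31 and 4.61 and Gstt3 at 8.30 and 5.48 (knockout and wild type) stand apart from their neighbours, while Akr1a1 and Prdx1 are lower together with all 4 genes around them.

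The promoters of 4 transferases are shown because NRF2 target genes carry the antioxidant response element, and because Mgst1, Gsta3 and Gstm4 were higher while Gstm5, from the same cluster as Gstm4, was not. Each is the 250 bases before a RefSeq gene start on GRCm38.p6, in the direction of the gene, with capitals marking a match to the core TGACNNNGC or its reverse complement GCNNNGTCA. Mgst1 is from chr6:138140277-138140526 on the plus strand, Gsta3 from chr1:21240335-21240584 on the plus strand, Gstm4 from chr3:108044860-108045109 on the minus strand and Gstm5 from chr3:107895604-107895853 on the plus strand. Mgst1 and Gstm4 have 2 listed starts each, and the start shown is the one with a core for Mgst1 and the first listed for Gstm4.
Mgst1: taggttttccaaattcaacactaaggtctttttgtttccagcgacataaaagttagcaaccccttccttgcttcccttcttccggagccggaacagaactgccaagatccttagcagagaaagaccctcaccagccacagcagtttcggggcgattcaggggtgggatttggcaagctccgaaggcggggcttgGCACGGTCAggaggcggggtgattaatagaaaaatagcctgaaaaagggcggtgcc
Gsta3: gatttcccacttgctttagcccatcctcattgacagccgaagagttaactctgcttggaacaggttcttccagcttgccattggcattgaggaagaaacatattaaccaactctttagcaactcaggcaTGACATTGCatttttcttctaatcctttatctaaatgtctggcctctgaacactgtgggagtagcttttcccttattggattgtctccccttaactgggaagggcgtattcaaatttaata
Gstm4: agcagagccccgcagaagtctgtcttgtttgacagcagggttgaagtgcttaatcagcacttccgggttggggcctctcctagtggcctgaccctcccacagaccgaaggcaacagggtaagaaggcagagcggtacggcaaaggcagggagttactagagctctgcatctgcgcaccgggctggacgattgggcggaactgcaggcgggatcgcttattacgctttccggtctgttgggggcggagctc
Gstm5: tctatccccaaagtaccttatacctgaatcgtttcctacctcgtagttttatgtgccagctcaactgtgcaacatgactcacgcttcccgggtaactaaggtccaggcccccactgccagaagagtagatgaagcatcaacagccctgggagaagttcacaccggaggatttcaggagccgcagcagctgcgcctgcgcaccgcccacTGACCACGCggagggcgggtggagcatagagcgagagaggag

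A core was found in Mgst1 at -56 to -48 from the gene start, in Gsta3 at -121 to -113 and in Gstm5 at -42 to -34, and none in the Gstm4 window. Windows of 300 bases, from 250 before to 50 after the start, were available for 60 members. Aldh2, Gclc and Hmox1 were among the members without a window and were not searched. Among the 60 members with a window, 10 (16.7%) held the core on either strand, against 14.0% of the 27025 genes in the promoter table. It was present in 2 of the 9 members at least 2-fold higher at any level (22.2%), namely Mgst1 and Gsta3, and in 8 of the 49 within 2-fold (16.3%). Members with a core had differences from -0.75 for Prdx1 to 4.35 for Mgst1, with 0.05 for Gstm5 and 2.27 for Gsta3. A match is a description of the letters and not a binding site, and the search did not reach beyond this window.

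The epoxide hydrolases had 3 members. Ephx1, the microsomal enzyme that opens epoxides of inhaled and dietary chemicals, was at 11.48 in the knockout and 10.17 in the wild type, 2.47-fold higher. Both values were far above the limit. Ephx2, the soluble enzyme that acts on lipid epoxides, was at 3.61 in the knockout and 3.62 in the wild type, and Ephx4 was also below background in both samples.

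Aldehyde dehydrogenases numbered 15, with 11 above the level limit. Aldh2, the mitochondrial enzyme that oxidises acetaldehyde and lipid aldehydes, was at 10.43 in the knockout and 6.63 in the wild type, 13.9-fold higher. The wild-type value was above background and just under the limit. Relative to its 40 nearest genes, with a median difference of -0.07, Aldh2 was 14.6-fold higher. Aldh3b1, an enzyme of lipid aldehydes, was at 7.08 in the knockout and 6.01 in the wild type, 2.10-fold higher. It lay barely past 2-fold, and relative to its 29 nearest genes (median difference 0.23) it was 1.79-fold higher. Centring each sample on its median also put it under 2-fold, with a difference of 0.95, and left 7 members at least 2-fold higher.

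Most other aldehyde dehydrogenases differed little. Aldh5a1, which oxidises succinic semialdehyde in mitochondria, was 1.76-fold higher in the knockout, at 7.85 against 7.03 in the wild type. Aldh7a1 was 1.57-fold higher, at 9.26 in the knockout and 8.60 in the wild type. Aldh9a1, which acts on gamma-trimethylaminobutyraldehyde, was 1.37-fold higher, at 10.24 in the knockout and 9.78 in the wild type. Aldh18a1, a proline synthesis enzyme, was at 10.17 in the knockout and 10.21 in the wild type. Aldh3a1, which is known as an abundant corneal enzyme and as a dioxin-inducible gene, was at 8.70 in the knockout and 8.80 in the wild type, and its chromosomal neighbour Aldh3a2, the fatty aldehyde dehydrogenase, at 9.53 in the knockout and 9.57 in the wild type. The 12 members within 2-fold ran from -0.39 for Aldh1l2, a mitochondrial folate enzyme, to 0.81 for Aldh5a1.

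Aldh1a7 lies beside the retinaldehyde dehydrogenase gene Aldh1a1, which is no member. It was at 6.26 in the knockout and 4.35 in the wild type, under the level limit, and 2.30-fold higher with the wild-type value raised to background. Aldh1a1 was at 8.20 in the knockout and 4.68 in the wild type, with a wild-type value also below background. Both neighbours were therefore higher in the knockout sample, and as close paralogs they may share probe signal. The flanking genes Anxa1, at 12.04 in the knockout and 11.84 in the wild type, and Tmc1, at 4.03 in the knockout and 4.14 in the wild type, had differences of 0.20 and -0.12.

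**Figure D3:**
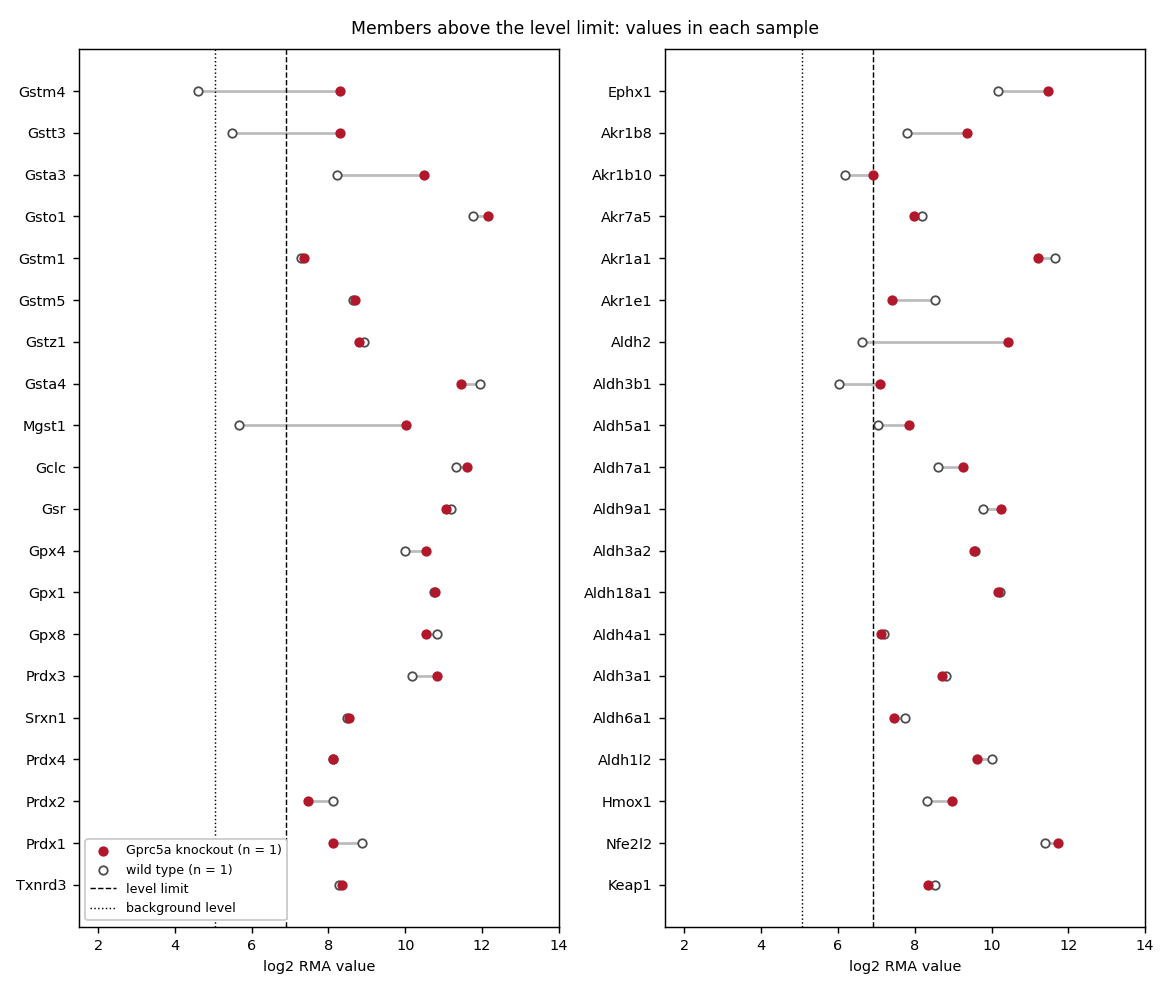
log2 RMA values of the 40 members above the level limit, knockout filled and wild type open, 1 sample each, grouped by family and sorted by difference. The dashed line is the level limit (6.90) and the dotted line the background level (5.05); the long bars of Gstm4, Gstt3, Mgst1 and Aldh2 start from wild-type values under the limit.

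Aldo-keto reductases, which reduce carbonyls to alcohols with NADPH, differed in both directions. Of 13 members, 5 were above the limit and 7 had both values below background. Akr1b8, an aldose reductase-like enzyme, was at 9.35 in the knockout and 7.80 in the wild type, 2.93-fold higher. Its neighbour Akr1b10 was at 6.91 in the knockout and 6.18 in the wild type, 1.66-fold higher, and its second, dimmer probe set gave a difference of 0.77 against 0.73. Akr1e1 was at 7.41 in the knockout and 8.53 in the wild type, 2.17-fold lower, and was the sole member above the limit at 2-fold or more in that direction. Akr1a1, the broad-range aldehyde reductase, was 1.36-fold lower, at 11.22 in the knockout and 11.66 in the wild type.

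Akr1e1 closes a run of 7 members on chromosome 13, and the 6 Akr1c genes before it were low in both samples. Akr1c18, a hydroxysteroid dehydrogenase that inactivates progesterone in mice, was at 5.60 in the knockout and 4.50 in the wild type, 2.13-fold higher, or 1.46-fold with the wild-type value raised to background. The 5 others of the run, with Akr1cl and Akr1d1 elsewhere, were below background in both samples. The genes after Akr1e1 were close in both samples, Klf6 at 10.64 in the knockout and 10.55 in the wild type, and Pitrm1 at 10.72 in the knockout and 10.87 in the wild type.

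No glutathione peroxidase or peroxiredoxin above the limit reached 2-fold. Among 8 glutathione peroxidases, Gpx4, which reduces phospholipid hydroperoxides and restrains ferroptosis, was 1.48-fold higher, at 10.55 in the knockout and 9.99 in the wild type. Gpx1, the main cytosolic enzyme, was at 10.78 in the knockout and 10.76 in the wild type. Gpx8, of the endoplasmic reticulum, was 1.22-fold lower, at 10.55 in the knockout and 10.83 in the wild type. Gpx2, the epithelial enzyme known from the gut, was at 2.59 in the knockout and 4.71 in the wild type. Both values of Gpx2 were below background, so its difference of -2.12 gives no fold.

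Peroxiredoxins, which reduce peroxides through reactive cysteines, differed in both directions. Prdx3, the mitochondrial enzyme, was 1.58-fold higher, at 10.83 in the knockout and 10.17 in the wild type. The cytosolic Prdx1 was 1.69-fold lower, at 8.13 in the knockout and 8.88 in the wild type, and the cytosolic Prdx2 was 1.57-fold lower, at 7.46 in the knockout and 8.11 in the wild type. Prdx4, of the endoplasmic reticulum, and Srxn1, the sulfiredoxin that repairs overoxidised peroxiredoxins, differed by less than 0.1. All 5 were above the limit in both samples.

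Genes next to these peroxiredoxins on the chromosome mostly differed in the same direction. Of the 40 genes nearest to Prdx1 on chromosome 4 with a mean above the limit, 38 were lower in the knockout. Their median difference was -0.62, and relative to that median Prdx1 differed by -0.14. Akr1a1 is the adjacent member, and relative to its neighbours it differed by 0.18, so its sign turned. The other members above the limit on chromosome 4, Akr7a5 and Aldh4a1, had differences of -0.22 and -0.09, with neighbour medians of -0.48 and -0.47. For Prdx3 on chromosome 19, all 20 neighbours were higher, with a median of 0.41, and Prdx3 relative to them differed by 0.25. For Prdx2 on chromosome 8, 31 of 40 neighbours were lower, with a median of -0.15, and its relative difference was -0.50.

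Taken relative to neighbours, 7 members above the level limit were at least 2-fold higher and 1 at least 2-fold lower. Aldh3b1 was the gene that dropped out, and Mgst1 (20.6-fold), Gstm4 (12.5-fold), Gsta3 (4.35-fold), Akr1b8 (2.85-fold) and Ephx1 (2.16-fold) were at least 2-fold higher on that scale as well as Aldh2 and Gstt3. Akr1e1 was 2.06-fold lower. Under the limit, Aldh1a7 and Akr1c18 were also past 2-fold higher on that scale and Gpx2 past 2-fold lower, each with a value below background. The share of all genes past 2-fold relative to neighbours was not computed, so these counts have no array-wide share beside them.

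**Figure D4:**
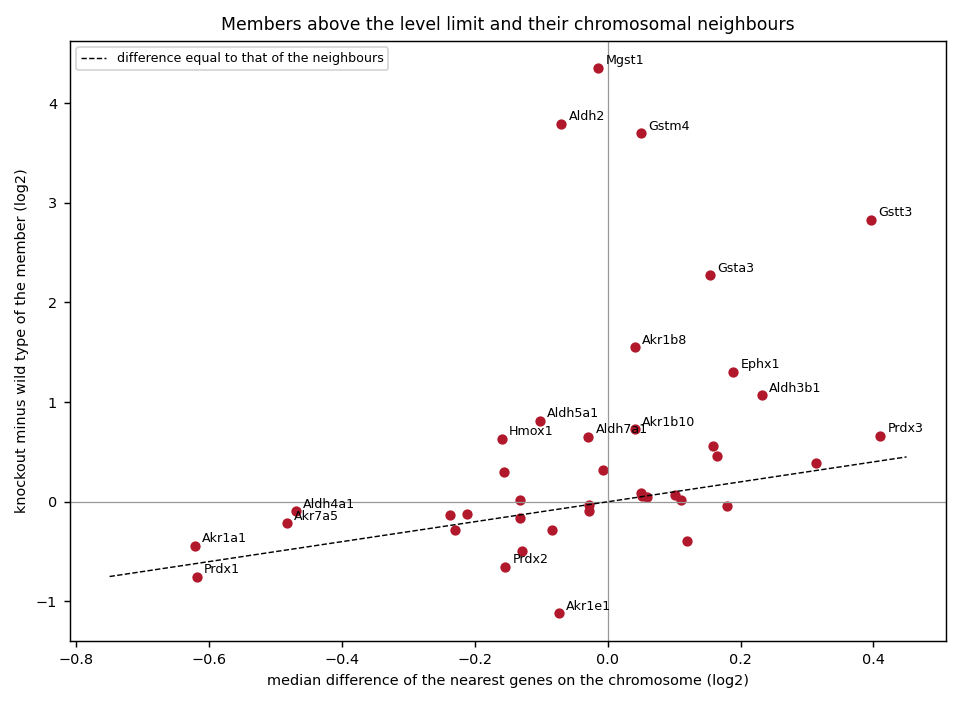
Difference of each of the 40 members above the level limit (vertical, log2, knockout minus wild type) against the median difference of its nearest genes (horizontal, log2). The nearest genes had a mean of both values above the limit, up to 20 on either side. Prdx1 and Akr1a1 lie near the dashed line of equality at neighbour medians of -0.62, and Mgst1, Aldh2 and Gstm4 lie far above it at neighbour medians near 0.

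Genes of glutathione supply and of NRF2 control were well expressed and close in both samples. Gclc, the catalytic subunit of the enzyme that limits glutathione synthesis, was at 11.61 in the knockout and 11.31 in the wild type, 1.23-fold higher. Gsr, glutathione reductase, was at 11.07 in the knockout and 11.20 in the wild type. Of the thioredoxin reductases, Txnrd3, known from testis, was at 8.35 in the knockout and 8.28 in the wild type. Txnrd2, the mitochondrial enzyme, was under the limit at 5.27 in the knockout and 5.07 in the wild type.

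Nfe2l2, the gene of NRF2, was at 11.72 in the knockout and 11.40 in the wild type, 1.25-fold higher, and Keap1 was at 8.36 in the knockout and 8.52 in the wild type. Hmox1, heme oxygenase-1 and a widely used NRF2 target, was 1.55-fold higher, at 8.96 in the knockout and 8.33 in the wild type. Nqo1, the quinone reductase that is another standard NRF2 target, was at 3.08 in the knockout and 3.00 in the wild type, both below background. None of these 4 genes reached 2-fold, and transcript levels do not show how much NRF2 protein was active.

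Other genes of the same pathways were taken from a list of 47, of which 40 had a probe set of their own and 31 were above the level limit. Above the limit 3 were at least 2-fold higher and 1 at least 2-fold lower, beside 4.56% and 2.85% of all genes above it. Without a limit 5 (12.5%) were at least 2-fold higher, against 3.34% of all genes, and 1 (2.50%) at least 2-fold lower, near the 2.11% of all genes. Higher values in the knockout were found for 28 of the 40, against 6835 of all 14860 genes, and the list's median difference was 0.26. These bases differ in level, since 9 of the 40 were under the limit, against 7077 of all genes. With each sample centred on its median the list's median was 0.15.

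Idh1, the cytosolic isocitrate dehydrogenase that supplies NADPH, was at 10.81 in the knockout and 9.46 in the wild type, 2.54-fold higher. Blvrb, a flavin and biliverdin reductase, was 2.47-fold higher, at 8.80 in the knockout and 7.50 in the wild type, and Glrx, glutaredoxin-1, which removes glutathione from proteins, was 2.07-fold higher, at 9.25 in the knockout and 8.20 in the wild type. Pir, pirin, was 2.02-fold lower, at 8.19 in the knockout and 9.21 in the wild type. All 4 were above the limit in both samples. With each sample centred on its median, Glrx had a difference of 0.94, under 2-fold, which left 2 genes at least 2-fold higher. Next in size were Cbr3, a carbonyl reductase (1.87-fold higher), Msrb2, a methionine sulfoxide reductase (1.83-fold), and Ggct, an enzyme of glutathione turnover (1.80-fold). Glrx3 and Txn1, thioredoxin, were 2-fold or more higher but under the limit, at 6.56 and 6.20 in the knockout and 5.00 and 5.01 in the wild type.

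Most NRF2 partners and suppliers of cystine and NADPH differed by less. The cystine transporter gene Slc7a11 was at 10.35 in the knockout and 10.02 in the wild type, and Gss, glutathione synthetase, at 8.67 in the knockout and 8.36 in the wild type. Of the 40 genes nearest to Slc7a11, 35 were higher, with a median difference of 0.66, and relative to them Slc7a11 differed by -0.32. Pgd, a supplier of NADPH, was at 10.65 in the knockout and 10.55 in the wild type. Mafg, a small MAF protein that pairs with NRF2, was at 8.68 in the knockout and 8.69 in the wild type. Mafk, another small MAF protein, was 1.44-fold lower, at 8.02 in the knockout and 8.55 in the wild type. Bach1, a repressor at the same element, was at 7.61 in the knockout and 7.70 in the wild type. The ferritin heavy chain gene Fth1 was 1.63-fold and the exporter gene Abcc1 1.67-fold higher.

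**Figure D5:**
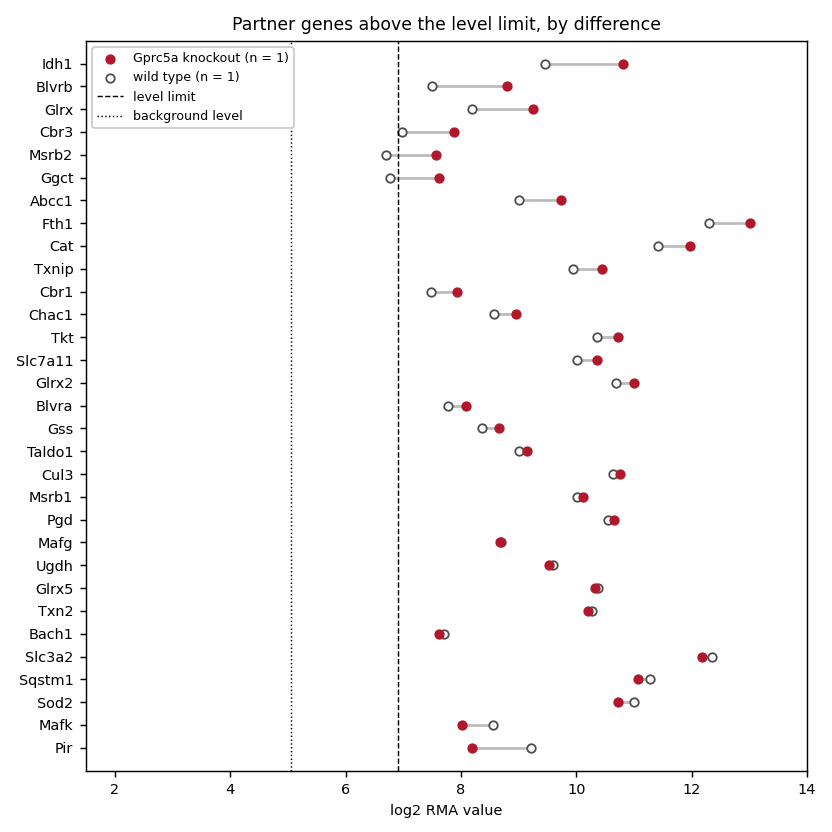
log2 RMA values of the 31 pathway genes outside the named families that were above the level limit, knockout filled and wild type open, 1 sample each, sorted by difference. Idh1, Blvrb and Glrx at the top and Pir at the bottom are the genes at 2-fold or more.

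Some markers of other airway cells differed together with these enzymes. Cyp2f2, a club cell cytochrome P450, was 8.86-fold higher in the knockout, at 9.63 against 6.48 in the wild type, and was the only gene above the limit among 5 measured club and secretory markers. Scgb1a1, Scgb3a1 and Scgb3a2, the secretoglobins that define club and secretory cells, had both values below background, with Scgb1a1 at 2.30 in the knockout and 2.35 in the wild type. The 5 club markers summed to 854 on the linear scale in the knockout and 167 in the wild type, a gap that lay in Cyp2f2: the other 4 had differences from -0.43 to 0.23, and the list's median difference was -0.05. Of 4 ciliated cell markers, Foxj1 was 6.70-fold higher, Dnah5, Ccdc39 and Tekt1 were below background in both samples, and the list summed to 544 in the knockout and 116 in the wild type, with a median difference of 0.14 and the gap in Foxj1. None of 6 fibroblast, 3 immune and 3 endothelial markers was above the limit. The part of such cells in the enzyme differences was not tested.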

How the data were processed

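Total RNA of 1 Gprc5a knockout and 1 wild-type culture was hybridised to Affymetrix arrays, 250 ng per sample, per the labels' protocols. The deposited values are log2 values, and per the submitters' processing notes the authors used RMA and Affymetrix Expression Console; the sources used here give no versions, no genome build and no word on which arrays were normalized together. The sorted columns differed by at most 0.17, so the arrays share nearly 1 distribution and a global change in RNA could not be seen. RMA is known to understate large ratios.

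Of 23332 probe sets, 14996 had 1 gene symbol in the platform annotation, 1019 had several and 7317 had none. They stood for 14860 genes, and of several probe sets the one with the highest mean was used. All 71 members matched RefSeq by Entrez ID with unchanged symbols. Differences, counts at 2-fold and medians were computed in Python 3.11.15 with numpy 2.4.6 and pandas 2.3.3, and the calculation was tested on simulated data. A single sample per group allows no test, and precision is limited by the small number of arrays. Genes named were Gprc5a, members at 2-fold or more above the limit, the 2 members of each family with the highest means and the 2 with the largest differences, Nfe2l2, Keap1, and pathway genes at 2-fold or more with the next 3. Others were named after their values were seen. The members and lists were chosen with earlier results of these data known. Alternatives changed the limit, the fold, the centring, low values, the probe set and the reference to neighbouring genes, the last chosen after seeing the data.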

Additional observations from a re-analysis of the deposited data

How the results depend on the processing

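The members at least 2-fold higher numbered 8 above the limit. They numbered 5 when the mean of both values had to exceed the limit, 13 at 1.5-fold, and 7, without Aldh3b1, either relative to neighbouring genes or with each sample centred on its median. The members at least 2-fold lower numbered 1, and 2 without a limit and 3 at 1.5-fold. The pathway genes at least 2-fold higher numbered 3, 5 without a limit, 8 at 1.5-fold and 2, without Glrx, after centring. A lower fold or no limit admits more genes by construction. Shares of all genes were computed at 2-fold above the limit, without a limit and with both values above it. For the other settings they were not computed, so the counts there cannot be judged against the array. Centring each sample on its median reversed the members' median difference to -0.0910 and lowered that of the pathway genes to 0.15, and it reversed Gpx1 to -0.0941 and Txnrd3 to -0.0442. Raising low values to background gave Gprc5a a difference of -4.43. Relative to neighbouring genes, Akr1a1 turned to 0.18, Ephx2 to 0.0409, Gsr to 0.108 and Txnrd3 to -0.0295, and Prdx1 was reduced to -0.14. Other signs turned as well, among them Slc7a11 from 0.34 to -0.32, Aldh4a1 from -0.09 to 0.38 and Akr7a5 from -0.22 to 0.27. The sign of differences this small carries no weight with 1 sample per group. Averaging the probe sets of a gene moved no count by over 1.5 times and no median by over 0.1. It could hardly do so, because among the members and pathway genes only Akr1b10 had more than 1 probe set. No paired analysis was possible because each genotype has 1 sample. A low value may be unspecific signal, so folds against values under 5.05 depend on how RMA treats background.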

Other observations

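The differences also varied by chromosome. Over genes with a mean above the level limit, the median difference was -0.35 for the 444 genes of chromosome 4, of which 334 were lower in the knockout, and -0.18 for the 442 genes of chromosome 8. It was 0.28 for the 279 genes of chromosome 19, of which 43 were lower, and 0.24 for the 374 genes of chromosome 10. On the other chromosomes it lay between -0.11 and 0.16.

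Flanking genes with differences of their own were Exoc4, near Akr1b8, at 10.87 in the knockout and 9.36 in the wild type, and Gnat2, near Gstm4, at 4.94 in the knockout and 6.20 in the wild type.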
